A study of Mus musculus with 18 samples.

Results

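The heat shock response and its chaperone network were followed through 10 genes in dorsal root ganglia of injured and control mice: the small heat shock proteins Hspb1 and Cryab, the HSP70 and HSP110 genes Hspa8, Hspa1a, Hspa1b and Hsph1, the HSP90 gene Hsp90aa1, the mitochondrial chaperonin Hspd1, the J-domain protein Dnajb1 and the co-chaperone Bag3. The genes were taken by symbol, and all 10 of 10 were present among the 15730 genes of the deposited count table. RNA came from the ganglia that feed the sciatic nerve of C57BL/6 mice aged 6 to 8 weeks, collected 24 hours after surgery, and each of the 18 samples pooled 2 mice. There were 3 samples in each of 6 groups. Sham_Saline had a sham operation with saline and SNA_Saline a sciatic nerve injury with saline. SNA_NAC had the nerve injury with 30 mM N-acetyl-cysteine, a thiol antioxidant. The group spelled Sham_H202 in the labels had the sham operation with 13 mM hydrogen peroxide. DCA had a dorsal column injury, a lesion in the tract where these neurons send axon branches up the spinal cord. Mice in LAM had only a laminectomy, the opening of bone that exposes the cord. No group was of unoperated mice, and whole ganglia were used, so that fewer cells of a type and less RNA per cell cannot be told apart.

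Chaperones bind unfolded or partly folded protein. Small heat shock proteins hold such clients without using ATP, while HSP70 proteins bind and release them in an ATP cycle that J-domain proteins start and nucleotide exchange factors such as Hsph1 and Bag3 end. HSP90 completes the folding of kinases and receptors, and the Hspd1 chaperonin folds proteins imported into mitochondria. Many of these genes carry heat shock elements, inverted repeats of the letters GAA bound by the heat shock factor HSF1. Hspb1 (HSP27 or HSP25) is known in sensory and motor neurons as a survival factor after axon injury.

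Heat shock elements were sought in the 250 bases before the start of each gene, because they are the best known shared control sequence of the family. Of the 10 genes, 7 matched the RefSeq promoter table (GRCm38.p6), and Hspa8, Hsp90aa1 and Cryab did not. The 3-unit form, GAA and TTC in alternation with 2 free bases between units and starting with either, was present before Hspd1, 1 of the 7 genes (14.3%), against 0.44% of the 11364 genes of the count table with a promoter. A 2-unit form, GAANNTTC, reads the same on both strands and lies within the longer one. It was present before 4 of the 7 (57.1%), against 6.13% of the same 11364 genes. The other 2-unit order, TTCNNGAA, was not searched, so these shares are for GAANNTTC alone. The bases before Hsph1 hold a match to TTCNNGAA. The 4 windows of 150 bases that end at the base before the start are given 5′ to 3′ on the gene's strand. Every GAANNTTC or 3-unit match is in capitals.
Hspb1, chr5:135887769-135887918, plus strand: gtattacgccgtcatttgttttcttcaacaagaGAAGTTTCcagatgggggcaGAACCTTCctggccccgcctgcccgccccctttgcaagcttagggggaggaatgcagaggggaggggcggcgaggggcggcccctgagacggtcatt
Hspd1, chr1:55087933-55088082, minus strand: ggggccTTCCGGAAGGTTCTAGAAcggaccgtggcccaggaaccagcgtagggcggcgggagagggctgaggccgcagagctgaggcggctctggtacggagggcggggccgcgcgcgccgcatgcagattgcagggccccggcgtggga
Hspa1a, chr17:34972157-34972306, minus strand: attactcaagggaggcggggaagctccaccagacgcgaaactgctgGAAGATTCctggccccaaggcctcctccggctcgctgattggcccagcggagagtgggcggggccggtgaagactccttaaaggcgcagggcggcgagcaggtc
Hspa1b, chr17:34959239-34959388, minus strand: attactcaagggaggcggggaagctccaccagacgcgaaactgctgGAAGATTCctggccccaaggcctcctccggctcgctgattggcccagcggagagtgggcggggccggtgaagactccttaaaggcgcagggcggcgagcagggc
Hspb1 held 2 separate 2-unit elements, and in Hspd1 4 alternating units followed one another at the regular spacing. RefSeq gives Hspd1 more than 1 start, and the window shown precedes the start that lies inside the annotated gene. The bases before the start at the gene's annotated end held no such element. The windows of Hspa1a and Hspa1b, neighbouring genes on chromosome 17, had 149 of 150 bases in common. Searches of both strands for an AP-1 site (TGANTCA) found 1 of the 7 genes, Bag3 (14.3%, against 5.62% of all), and for a CRE site (TGACGTCA) none of them, against 2.94% of all. These matches describe letters only.

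Depth and tissue were checked once for all results. Deposited counts per sample summed to between 6472476 and 42435331. Atf3, a transcription factor known to rise in axotomized neurons, served as a check of the injury labels and stood at 444 ± 21.5 CPM (counts scaled to a common library size) in SNA_Saline and 62.6 ± 8.81 in Sham_Saline (SD, n = 3). Markers of sensory neurons, satellite glia and Schwann cells were detected in every sample. Of the 8 skeletal muscle markers none was at 0, and their summed level ran from 8.21 to 1363 CPM in Sham_Saline, where replicate 2 was highest, against 27.6 to 305 CPM in SNA_Saline. The dependence of counts on the GC share of the transcript also differed between libraries, from -0.22 (Sham_H202 replicate 3) to 0.43 (Sham_Saline replicate 2) in log2 CPM per SD of GC share. Both values single out Sham_Saline replicate 2, and they stand beside the results they move with.

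Per unit of transcript length, Hspa8 and Hsp90aa1 were the most abundant of the 10 transcripts and the stress-inducible Hspa1a and Hspa1b the scarcest. The medians over the 18 samples, in the authors' FPKM (fragments scaled by transcript length and library size), were 568 for Hspa8 and 564 for Hsp90aa1, which did not differ beyond their spread over samples. Hspd1 (136), Cryab (115) and Hspb1 (99.5) formed an intermediate level, followed by Bag3 (69.2), Hsph1 (42.8) and Dnajb1 (27.9). Hspa1b had a median of 1.63 FPKM and Hspa1a one of 1.09. The constitutive HSP70 transcript thus stood far above the inducible pair in every sample, since Hspa8 never fell below 467 FPKM and Hspa1b never exceeded 2.66. Reads of some of these genes also fit elsewhere: 47.1% of the 100-base windows of the Hspa1a transcript occur in Hspa1b, and 42.7% of those of Hspb1 occur in the pseudogene Hsp25-ps1. For Hsp90aa1 (47.5%), Hspa8 (32.1%), Hspd1 (26.9%) and Cryab (15.0%) such windows were also found in other annotated genes, whereas Hsph1, Dnajb1 and Bag3 had none. How such reads were counted is not given in the sources used here, so the levels of Hspa1a and Hspa1b in particular are uncertain.

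**Figure D1:**
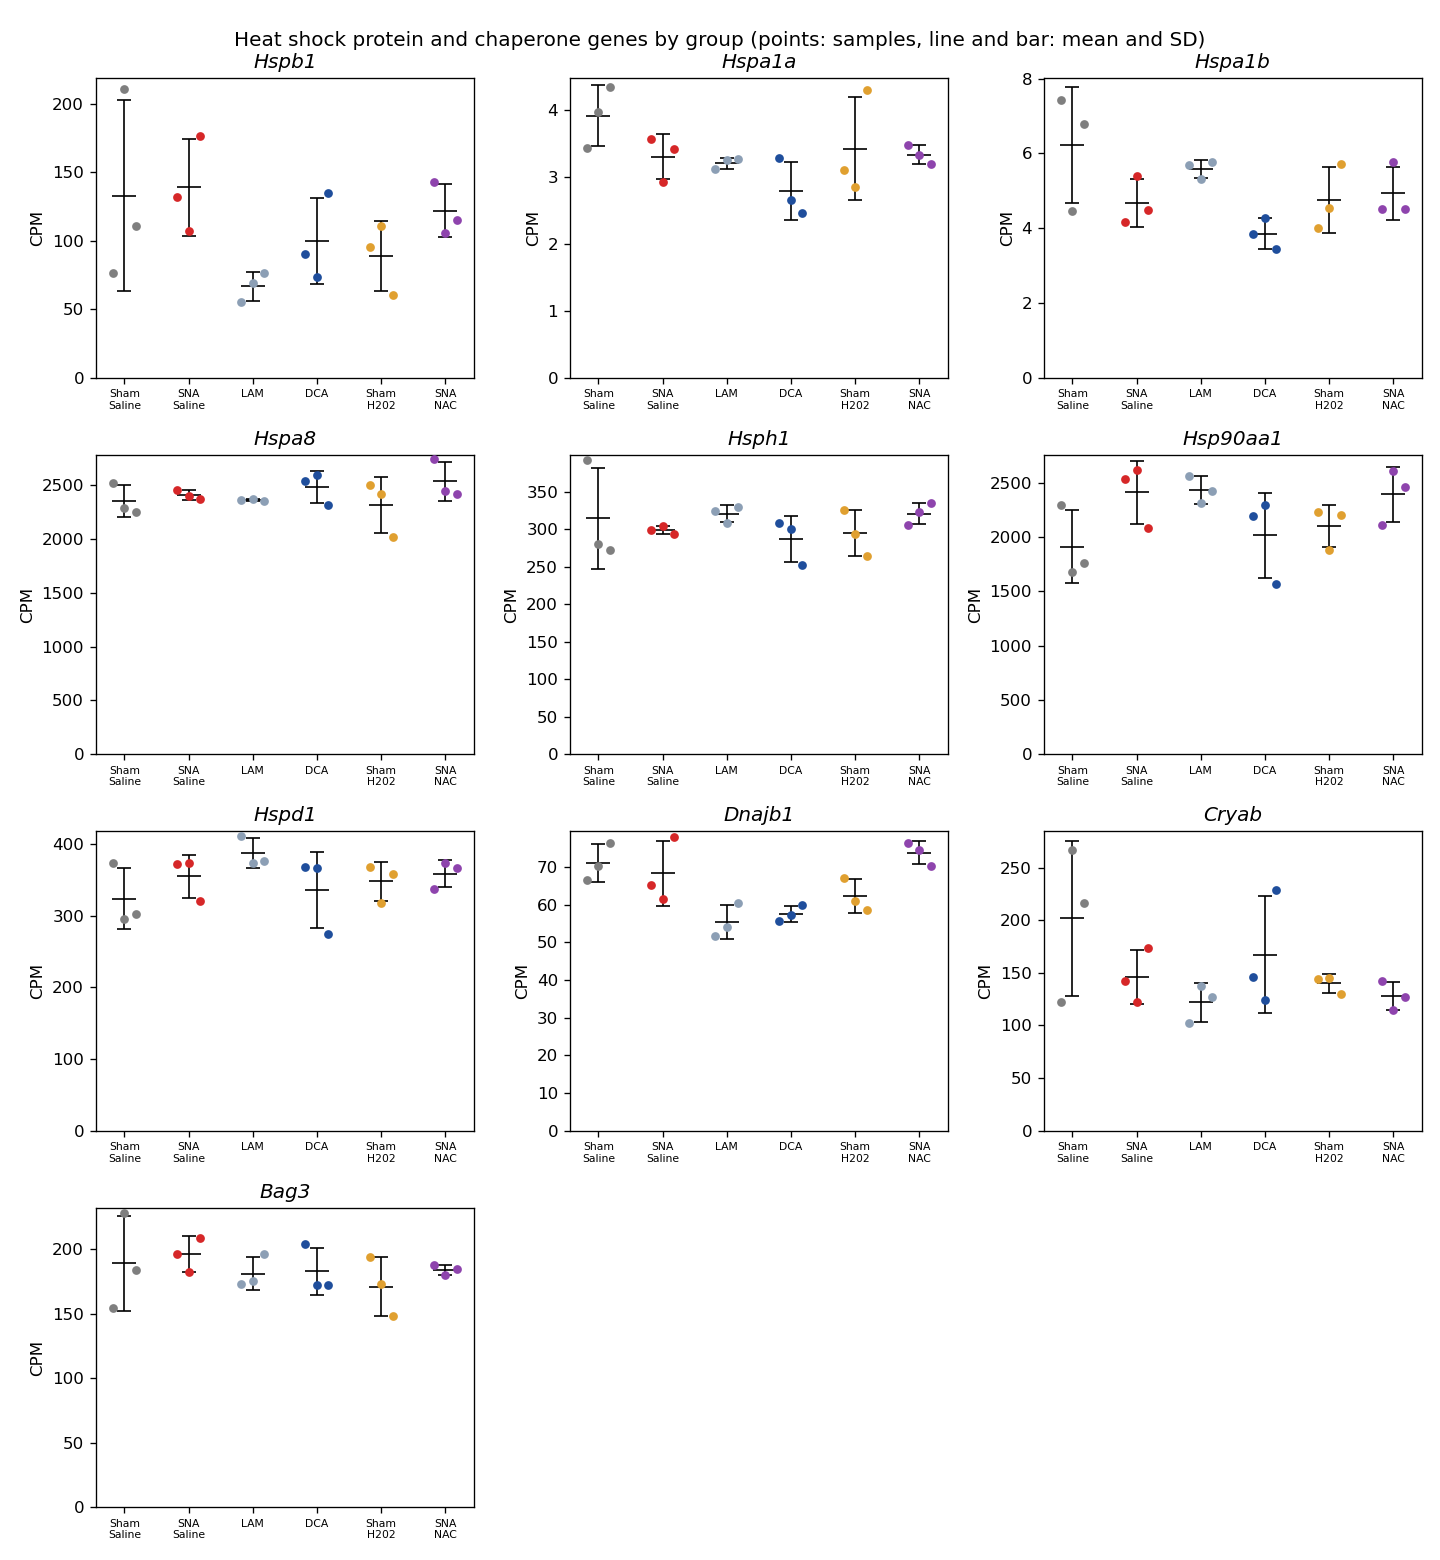
CPM of each of the 10 genes (vertical axis, starting at 0) in the 6 groups (horizontal axis); points are samples, in the order of replicates 1 to 3, and the line and bar are the mean and SD. Hspa8 is nearly level across the groups, while Hspb1 and Cryab spread most, with Sham_Saline replicate 2 highest in both.

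The first comparison asks how the ganglion responds to injury of its peripheral axons. None of the 10 genes passed the test between SNA_Saline and Sham_Saline (edgeR quasi-likelihood test, Benjamini-Hochberg adjusted p under 0.05), where 2.73% of all genes did. DESeq2 also called 0 of the 10 (5.49% of all genes). An unadjusted p under 0.05 was found for 1 of the 10, against 22.5% of all genes, and in no case were the 3 samples of one group clear of the other's, against 19.1% of all genes (10.3% higher and 8.80% lower). The median log2 fold change of the 10 genes was -0.01, with 5 positive and 5 negative, against -0.03 over all genes.

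For Hspb1 the result depended on how the libraries were scaled. The gene lies at chr5:135887919-135889563 on the plus strand (GRCm38). Its CPM were 132, 107 and 177 in SNA_Saline and 76.3, 211 and 111 in Sham_Saline (replicates 1 to 3). The sham values enclosed the injured ones, with the highest of all 18 samples in Sham_Saline replicate 2. The fitted log2 difference was 0.06 ± 0.32 (SE, adjusted p = 0.917, edgeR), with a 95% interval from -0.61 to 0.73. Within lanes 1, 2 and 3, each with 1 library per group, it was 0.79, -0.98 and 0.67. Hspb1 has the highest GC share of the 10 transcripts, 61.7%, and the shortest, 930 bases.

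When each library's dependence on GC share and transcript length was taken out with offsets, Hspb1 was called higher after nerve injury. The adjusted CPM became 147, 139 and 149 in SNA_Saline and 90.4, 105 and 82.9 in Sham_Saline, with no overlap. The difference was 0.64 ± 0.09 on the log2 scale, a 1.56-fold rise (edgeR adjusted p = 0.000169), and 7.44% of all genes were called in that fit. With the lane as a block beside the offsets it was 0.64 (edgeR adjusted p = 0.000562). It held in each of the 6 fits that left out 1 of these samples, between 0.57 and 0.74, with an adjusted p of at most 0.00159 (edgeR). The replicate SD of Hspb1 was 0.44 in log2 CPM before and 0.12 after the offsets. The offsets did not act alike on all 10 genes, as the SD of Hspa1b grew from 0.23 to 0.47 and that of Hspa8 from 0.10 to 0.15. Leaving out only Sham_Saline replicate 2, with no offsets, moved Hspb1 to 0.57 (edgeR adjusted p = 0.47).

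The same offsets put Hspb1 at 144, 143 and 137 adjusted CPM in SNA_NAC, 96.6, 93.6 and 78.6 in Sham_H202, 82.5, 84 and 87.2 in DCA and 71.4, 74.3 and 85.8 in LAM. All 6 samples with sciatic nerve injury, with saline or with the antioxidant, thus lay above all 12 others. The share of all genes so placed under the offsets was not computed, so how unusual this is cannot be said. Between SNA_NAC and Sham_Saline the offset fit gave 0.60 ± 0.09 (edgeR adjusted p = 0.000269; 7.64% of all genes called), and it held in each of 6 fits without 1 sample. Without offsets that difference was -0.13 (edgeR adjusted p = 0.806), and 0.38 without Sham_Saline replicate 2 (edgeR adjusted p = 0.678).

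**Figure D2:**
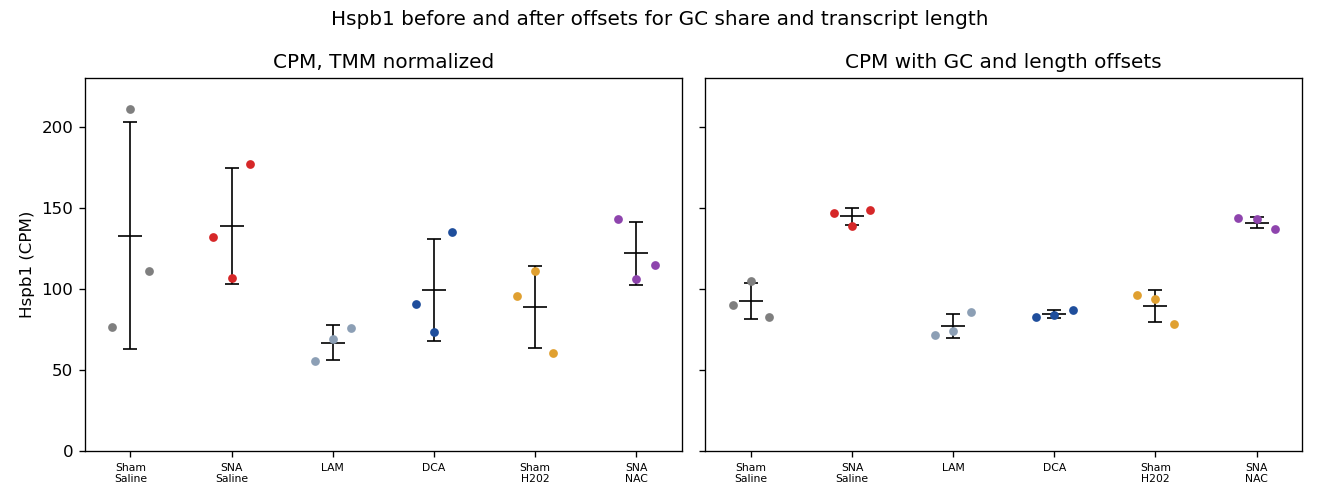
Hspb1 in the 18 samples (vertical axes, CPM from 0), by group (horizontal axis), scaled by TMM alone (left) and with offsets for GC share and length (right); points are samples in replicate order, with mean and SD. On the left the sham values of 76.3 to 211 enclose the injured ones, and on the right SNA_Saline and SNA_NAC lie between 137 and 149 and all other samples between 71.4 and 105.

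Cryab, the other small heat shock protein and a partner of Hspb1 in mixed oligomers, had a lower mean after nerve injury. Its CPM were 142, 122 and 174 in SNA_Saline and 122, 267 and 216 in Sham_Saline, so that the lowest sample of both groups was at 122. The log2 difference was -0.47 ± 0.24 (edgeR adjusted p = 0.259), or -0.27 with the offsets (edgeR adjusted p = 0.198). Without Sham_Saline replicate 1 it was -0.73 (edgeR adjusted p = 0.0374), a fit in which 16.2% of all genes were called, and without Sham_Saline replicate 2 it was -0.21 (edgeR adjusted p = 0.766). Cryab is abundant in skeletal muscle and is also made by glia. The 3 libraries highest in Cryab, Sham_Saline replicates 2 (267 CPM) and 3 (216) and DCA replicate 3 (229), had muscle marker sums of 1363, 8.21 and 116 CPM. The dependence of counts on GC share was also highest in these libraries (0.43, 0.16 and 0.25 in log2 CPM per SD). The same libraries had the 3 highest sums of the Schwann cell markers (10192, 10306 and 9680 CPM) and the satellite glia markers (2770, 2339 and 2432). So it was for the blood (777, 840 and 723), endothelium (67.5, 65.8 and 70.2) and macrophage markers (40, 36.7 and 36.9). It did not hold for the fibroblast markers (865, 962 and 865). Among sensory neuron sums (8682, 5498 and 6604), Sham_H202 replicate 2 at 5503 came above Sham_Saline replicate 3. These are sums, and the single markers of a list did not all follow them. Between SNA_Saline and Sham_Saline the median log2 difference of the markers was 0.12 for satellite glia and 0.18 for macrophages, opposite in sign to Cryab. It was -0.30 for Schwann cells, -0.42 for sensory neurons, -1.54 for skeletal muscle, -0.33 for blood, -0.22 for endothelium and -0.08 for fibroblasts. The part of these cell types in the difference was not tested.

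Hsp90aa1, the stress-responsive cytosolic HSP90, had the smallest p of the 10 genes after nerve injury in the fit without offsets. It stood at 2541, 2619 and 2083 CPM in SNA_Saline and at 2295, 1679 and 1767 in Sham_Saline. The injured values were the higher ones within each of the 3 lanes, but the groups overlapped. The log2 difference was 0.34 ± 0.15 (edgeR adjusted p = 0.216), 0.10 with the offsets (edgeR adjusted p = 0.504), and 0.49 without Sham_Saline replicate 1 (edgeR adjusted p = 0.048). Hsp90aa1 has the lowest GC share of the 10 transcripts, 43.7%.

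The HSP70 genes showed small differences. Hspa8, the constitutive HSP70, was at 2460, 2398 and 2378 CPM in SNA_Saline and 2522, 2292 and 2249 in Sham_Saline, with a 95% interval of the log2 difference from -0.18 to 0.25. Its replicate SD lay at percentile 4.83 of all genes, and its extremes over the 18 samples differed by 1.36-fold. Hspa1a, the inducible HSP70, was at 3.56, 2.92 and 3.42 CPM in SNA_Saline and 3.43, 3.96 and 4.34 in Sham_Saline. Its near copy Hspa1b had 4.16, 5.4 and 4.49 CPM against 7.44, 4.46 and 6.79, and the interval reached from -0.84 to 0.00. The CPM of these 2 genes rest on 24 to 190 reads per sample, the fewest of the 10 genes.

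Among the partners of HSP70, Hsph1, an HSP110 exchange factor, stood at 299, 304 and 294 CPM in SNA_Saline and 392, 280 and 272 in Sham_Saline. The J-domain protein Dnajb1 had 65.3, 61.4 and 78.1 CPM in SNA_Saline against 66.6, 70.2 and 76.5. Bag3, which links HSP70 and small heat shock proteins to autophagy, had 196, 182 and 209 CPM against 154, 228 and 184. The groups overlapped in all 3 genes. With the offsets Bag3 had adjusted CPM of 206, 209 and 187 against 166, 157 and 159, no longer overlapping. The log2 difference of 0.32 did not pass the test (edgeR adjusted p = 0.0729). LAM, at 201, 183 and 208 adjusted CPM, also lay above the saline shams. The share of all genes without overlap under the offsets was not computed. Hspd1, the mitochondrial chaperonin, was at 372, 373 and 321 CPM against 374, 296 and 303, with an interval from -0.13 to 0.39.

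The antioxidant was compared with saline after the same nerve injury. None of the 10 genes passed the test between SNA_NAC and SNA_Saline, and 0.00% of all genes did; at an unadjusted p under 0.05 it was 0 of 10 and 2.00% of all genes. DESeq2 also called 0 genes in all. Hsph1 was the only one of the 10 whose samples did not overlap, with 306, 323 and 335 CPM in SNA_NAC above 299, 304 and 294. Of all genes 9.24% were so placed and 5.63% placed below. With the offsets Hsph1 overlapped, at 302, 296 and 316 adjusted CPM against 295, 284 and 315. Hspb1 had 143, 106 and 115 CPM in SNA_NAC and 132, 107 and 177 in SNA_Saline, with overlap, and with the offsets the interval of the log2 difference was -0.22 to 0.15. For Hspa8 the interval ran from -0.14 to 0.28, for Hsp90aa1 from -0.34 to 0.32 and for Cryab from -0.70 to 0.33.

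Peroxide with the sham operation was compared with the saline sham. None of the 10 genes passed the test between Sham_H202 and Sham_Saline, and 0.00% of all genes did, although DESeq2 called 4. Cryab alone had an unadjusted p under 0.05, as did 9.15% of all genes. No gene of the 10 had groups clear of each other, against 2.16% of all genes higher and 3.27% lower. The CPM of Cryab were 144, 145 and 130 in Sham_H202, inside the sham range of 122 to 267, and a log2 difference of -0.53 ± 0.25 (edgeR adjusted p = 0.449) that was -0.27 without Sham_Saline replicate 2 (edgeR adjusted p = 0.973). Both inducible genes overlapped the saline shams under peroxide. Hspa1a had 3.1, 2.85 and 4.29 CPM against 3.43, 3.96 and 4.34, and Hspa1b 4.01, 4.53 and 5.72 against 7.44, 4.46 and 6.79. With the offsets the mean of Hspa1a was the higher one under peroxide, 3.71 against 3.18 adjusted CPM, and the samples again overlapped. Hspb1 had 95.4, 111 and 60.7 CPM, and Dnajb1 67.2, 61 and 58.6.

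**Figure D3:**
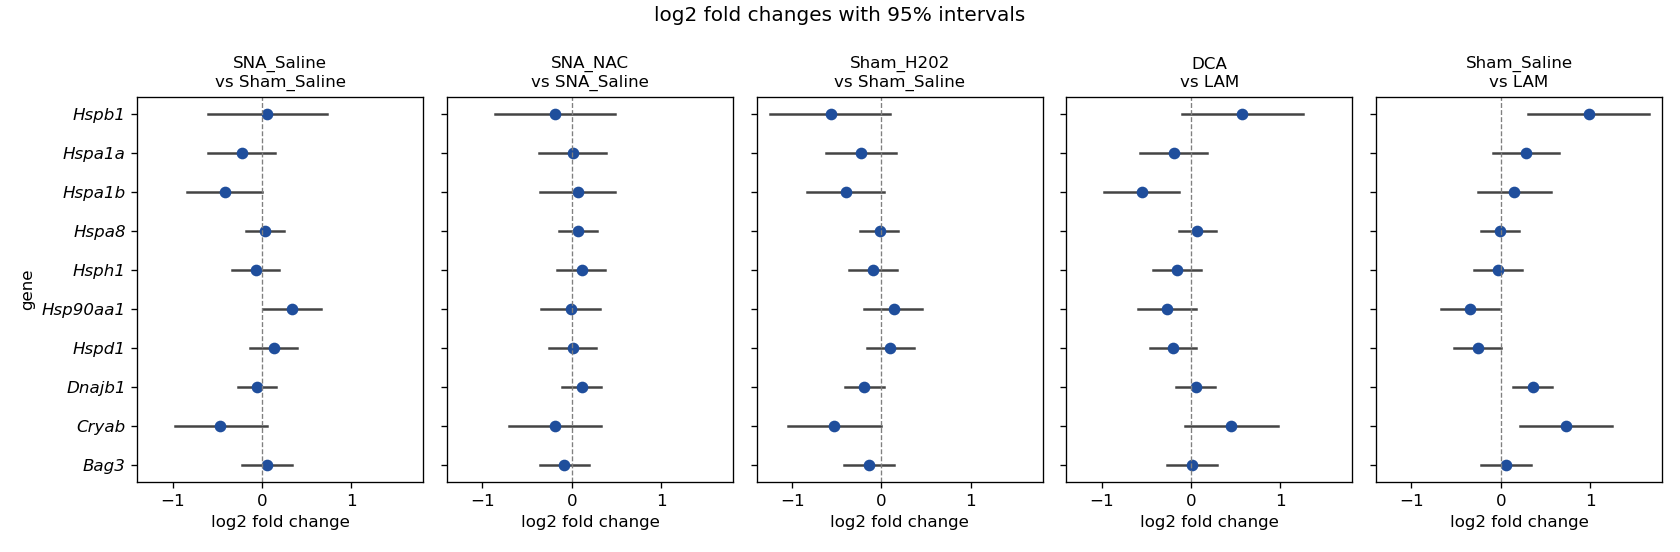
Fitted log2 fold changes (horizontal axis) of the 10 genes (vertical axis) in 5 comparisons, from the fit without offsets; points are estimates and lines 95% intervals. No estimate passed an adjusted p of 0.05, and the widest intervals are those of Hspb1 and Cryab.

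Injury of the central branch was compared with laminectomy. None of the 10 genes passed the test between DCA and LAM, and 0.00% of all genes did, while 5.04% had an unadjusted p under 0.05; DESeq2 called 2 genes. In 4 of the 10 genes, Hspa1b, Hsph1, Hsp90aa1 and Hspd1, all DCA samples lay below all LAM samples, against 9.85% of all genes, and in none above; in either direction it was 21.7% of all genes. Hspa1b was at 3.85, 4.27 and 3.43 CPM in DCA and 5.69, 5.31 and 5.77 in LAM, a log2 difference of -0.55 ± 0.20 (edgeR adjusted p = 0.624). That was the only unadjusted p under 0.05 among the 10. With the offsets it was -0.83 (edgeR adjusted p = 0.648). Hsp90aa1 had 2192, 2293 and 1568 CPM in DCA and 2566, 2312 and 2426 in LAM. In Hspd1 the values were 368, 366 and 275 against 411, 373 and 377, and in Hsph1 308, 301 and 252 against 324, 308 and 330. DCA replicate 3 was the lowest in each of these 4 genes, and it also had the steepest GC slope of its group, 0.25. With the offsets Hsph1 (log2 difference -0.06) and Hspd1 (-0.10) overlapped between DCA and LAM. Hspa1b, Hsp90aa1 (-0.11) and Hspa1a (-0.49) then lay below LAM in every DCA sample, and Hspa8 (0.20) above. The shares of all genes given here are for values without offsets, and those under the offsets were not computed. Hspb1 and Cryab had the higher mean in DCA, with overlap. The CPM of Hspb1 were 90.6, 73.7 and 135 CPM against 55.3, 69.2 and 76.1, and those of Cryab 146, 124 and 229 against 102, 137 and 127. For Hspb1 the offset fit gave 0.13 ± 0.09 (edgeR adjusted p = 0.67).

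A direct test asked whether the peripheral injury changed a gene more than the central one did, taking each against its own operated control. Without offsets none of the 10 genes passed it, and 1.61% of all genes did (1.23% in the positive direction). Hsp90aa1 gave a difference of differences of 0.61 ± 0.22 (edgeR adjusted p = 0.0974) and Cryab one of -0.92 ± 0.35 (edgeR adjusted p = 0.105). Both passed without Sham_Saline replicate 1, at 0.76 and -1.18 (edgeR adjusted p = 0.0236 and 0.0197), in a fit that called 29.2% of all genes. Hspb1 gave -0.51 ± 0.45 (edgeR adjusted p = 0.437). With the offsets its sign turned and it was called, at 0.51 ± 0.13 (edgeR adjusted p = 0.0282; 5.24% of all genes called). Of the 12 offset fits without 1 sample, 9 kept that call, and the values ran from 0.43 to 0.61. The call was lost without SNA_Saline replicate 1 (0.50, adjusted p = 0.0762), LAM replicate 3 (0.43, 0.0865) or DCA replicate 3 (0.54, 0.0544), each by edgeR. The lane as a block beside the offsets gave 0.52 (edgeR adjusted p = 0.0451). With the offsets Bag3 gave 0.52 (edgeR adjusted p = 0.0527) and passed in 3 of the 12 fits without 1 sample, and Cryab gave -0.51 (edgeR adjusted p = 0.0845) and passed in 1 of the 12.

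The control operations were compared as well. Between Sham_Saline and LAM none of the 10 genes passed the test, and 0.0699% of all genes did (0.0509% higher and 0.0191% lower in the shams), but 4 had an unadjusted p under 0.05, as did 30.3% of all genes. Hspb1 was higher in all 3 shams, 76.3, 211 and 111 CPM, than in any LAM sample, 55.3, 69.2 and 76.1. The log2 difference was 0.99 ± 0.32 (edgeR adjusted p = 0.104), and DESeq2 called it at 0.99 (DESeq2 adjusted p = 0.0427; 8.21% of all genes called). Without Sham_Saline replicate 2 it was 0.48 (edgeR adjusted p = 0.474), and with the offsets 0.26 (edgeR adjusted p = 0.127). Dnajb1 also cleared the LAM samples, 66.6, 70.2 and 76.5 against 51.7, 54.2 and 60.4 CPM, by 0.36 ± 0.10 (edgeR adjusted p = 0.104; 0.35 and 0.0376 with DESeq2). Hspa1a was the third such gene, in a direction that 16.4% of all genes shared. Cryab differed by 0.73 ± 0.25 (edgeR adjusted p = 0.104), with 1 sham sample inside the LAM range. Hsp90aa1 was lower in every sham than in any LAM sample, as were 14.2% of all genes. Its log2 difference was -0.35 ± 0.15 (edgeR adjusted p = 0.147), and -0.04 with the offsets (edgeR adjusted p = 0.796). With the offsets Bag3 was lower in every sham than in any LAM sample, at -0.30 (edgeR adjusted p = 0.132). Hspa8 (0.22), Dnajb1 (0.25) and Cryab (0.44) were then higher in every sham (edgeR adjusted p = 0.266, 0.114 and 0.1). Hspb1, Hspa1a and Hsp90aa1 overlapped with the offsets. The share of all genes without overlap under the offsets was not computed. Without Sham_Saline replicate 1 the edgeR test called 5 of the 10 genes, Hspb1 (1.27), Cryab (0.99) and Dnajb1 (0.40) higher and Hsp90aa1 (-0.50) and Hspd1 (-0.37) lower, along with 31.8% of all genes.

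The wider network comprised 114 further chaperone and co-chaperone genes of 10 families found among the 121 listed. After nerve injury 2 of the 114 were called higher, beside 2.16% of all genes, and 0 lower, beside 0.572%. An unadjusted p under 0.05 was found for 31 of the 114, beside 22.5% of all genes. Without Sham_Saline replicate 1, 15 of the 114 were called, beside 16.2% of all genes. Both genes called with all samples code for J-domain proteins. Dnajc7, a co-chaperone of HSP70 and HSP90, was at 305, 299 and 279 CPM in SNA_Saline and 209, 213 and 226 in Sham_Saline, a rise of 0.45 ± 0.08 on the log2 scale (edgeR adjusted p = 0.00608). Dnajb6, which restrains protein aggregation, was at 134, 149 and 120 CPM against 109, 93.8 and 100, a rise of 0.41 ± 0.11 (edgeR adjusted p = 0.0493). Neither gene's groups overlapped, and both were higher in 3 of 3 lanes. Dnajc7 kept its call in each of the 6 fits without 1 sample, but not in a fit on these 2 groups alone, where it gave 0.44 (edgeR adjusted p = 0.242). Dnajb6 lost its call without Sham_Saline replicate 2 (0.36, adjusted p = 0.217), Sham_Saline replicate 3 (0.40, 0.0917), SNA_Saline replicate 1 (0.41, 0.176) or SNA_Saline replicate 2 (0.33, 0.265), each by edgeR. It also lost it with the lane as a block (edgeR adjusted p = 0.0714). Its promoter holds a 3-unit heat shock element, as does that of Hspe1, the partner of Hspd1; these were 2 of the 92 further genes with a promoter (2.17%). In the test of the peripheral against the central injury, Dnajc7 was the only one of the 114 called, beside 1.61% of all genes. Its difference was 0.49 ± 0.12 (edgeR adjusted p = 0.0486). That call was lost with the lane as a block (edgeR adjusted p = 0.077), on these 4 groups alone (edgeR adjusted p = 0.0746) and in 9 of the 12 fits without 1 sample, and it held without Sham_Saline replicate 1, SNA_Saline replicate 3 or DCA replicate 1.

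Dnajc7 was raised again in SNA_NAC, at 277, 282 and 277 CPM, by 0.37 against Sham_Saline (edgeR adjusted p = 0.0215), a comparison that shares its controls with the preceding one. It was the only one of the 114 called there, where 3.32% of all genes were (2.47% higher and 0.846% lower). That call was lost without Sham_Saline replicate 2 (adjusted p = 0.102) or SNA_NAC replicate 1 (0.0603), 2 (0.0997) or 3 (0.0837), each by edgeR. Without offsets none of the 10 heat shock genes was called in that comparison or had groups clear of each other. Of all genes 21.2% had such groups (11.5% higher and 9.68% lower). With the offsets Hspb1 was called, and Hspb1, Dnajb1 and Bag3 were higher in every SNA_NAC sample than in any saline sham. For Dnajb1 the lowest SNA_NAC sample was at 73.2 adjusted CPM and the highest saline sham at 72.1. The share of all genes so placed under the offsets was not computed. In the fit without offsets Cryab came nearest, at -0.65 ± 0.24 (edgeR adjusted p = 0.126). Without Sham_Saline replicate 1 Cryab was called at -0.91 (edgeR adjusted p = 0.00677) and Hsp90aa1 at 0.48 (edgeR adjusted p = 0.0292), with 37.3% of all genes. None of the 114 was called between SNA_NAC and SNA_Saline, Sham_H202 and Sham_Saline, DCA and LAM, or Sham_Saline and LAM, where 0, 12, 1 and 46 had an unadjusted p under 0.05, beside 2.00%, 9.15%, 5.04% and 30.3% of all genes. DESeq2 called 12 of the 114 in the last, beside 8.21% of all genes.

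In the fit without offsets 9 families had no call, and the gene of each with the smallest p after nerve injury is described. Clpx, the unfolding subunit of a mitochondrial protease, had 64 ± 7.35 CPM in SNA_Saline and 45.2 ± 3.31 in Sham_Saline (SD, n = 3; edgeR adjusted p = 0.0505). Hspa9, the mitochondrial HSP70, had 483 ± 37.8 against 372 ± 45.1 (edgeR adjusted p = 0.108). Cct8, a subunit of the cytosolic chaperonin TRiC, had 477 ± 45.2 against 363 ± 32.7 (edgeR adjusted p = 0.112). Sugt1, an HSP90 co-chaperone, had 134 ± 13.5 against 105 ± 15 (edgeR adjusted p = 0.169). These 4 had the higher mean in the injured ganglia, and the next 5 had the lower. Serpinh1, the collagen chaperone of the endoplasmic reticulum, had 52.2 ± 7.39 against 69.8 ± 10.5 (edgeR adjusted p = 0.171), and the exchange factor Bag2 21.6 ± 3.24 against 27.7 ± 2.18 (edgeR adjusted p = 0.172). Hsf1, the transcription factor that binds heat shock elements, had 14.5 ± 5.19 against 23.6 ± 8.15 (edgeR adjusted p = 0.191), with 32.6 CPM in Sham_Saline replicate 2. Hspb2, the gene next to Cryab, had 3.13 ± 0.747 against 4.62 ± 1.97, and Trap1, the mitochondrial HSP90, 72.7 ± 3.86 against 84.4 ± 10.2 (edgeR adjusted p = 0.278 and 0.334).

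**Figure D4:**
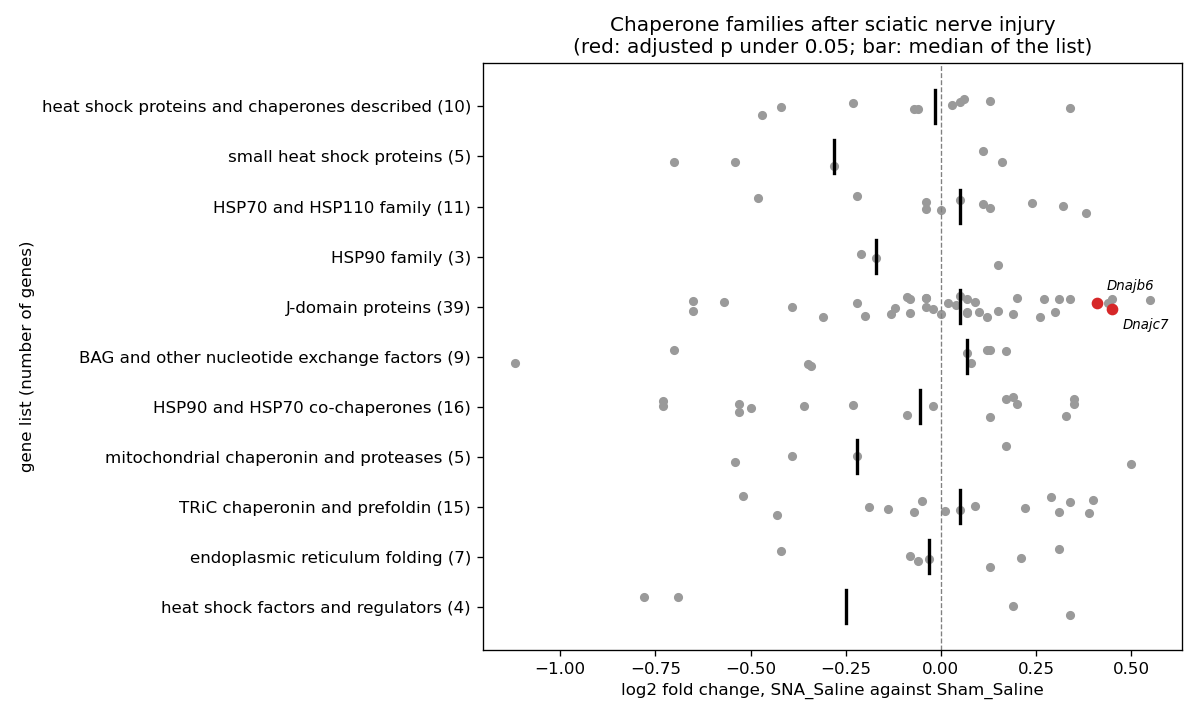
Log2 fold changes between SNA_Saline and Sham_Saline (horizontal axis) of the 10 genes and of the 114 further chaperone genes by family (vertical axis, with the number of genes); points are genes, red where the adjusted p was under 0.05, and bars are medians. Only Dnajc7 (0.45) and Dnajb6 (0.41) are red, and every family has genes on both sides of 0.

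With the offsets, 6 of the 114 were called after nerve injury, a share to be read beside the 7.44% of all genes. Dnajc7 (0.42), Dnajb6 (0.39), Clpx (0.27) and Dnajb9 (0.23), a J-domain protein of the endoplasmic reticulum, were higher. Bag2 (-0.39) and Dnajc6 (-0.21), the auxilin that strips clathrin coats with HSP70, were lower. Against the same shams SNA_NAC gave 7 calls of the 114, beside 7.64% of all genes, with Hspa12b (0.53), Dnajc7 (0.40), Dnajb6 (0.38), Clpx (0.27), Dnajb9 (0.24) and Hspb8 (0.19) higher and Dnajb14 (-0.30) lower. The log2 differences in this paragraph come from the edgeR fit with offsets, with adjusted p-values from 0.00117 to 0.0423.

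The 10 genes did not move as one block across the 18 samples. Likeness was measured as the mean absolute difference of log2 CPM, each gene centred on its own mean, among genes with a mean count of at least 50; it is a description, and the points share library and depth. The closest pair of the 10 was Hsp90aa1 and Hspd1, at 0.073, followed by Hsph1 and Hspd1 at 0.092. Among all genes, the nearest to Hspb1 were Rnh1 (0.088), Fam129b (0.102) and Arhgap22 (0.117), none of them a chaperone. Cryab was nearest to Rpsa (0.060), Eef1d (0.066) and Apoe (0.067). The nearest to Hsph1 was Hspa4 (0.052), another HSP110 gene, and the nearest to Hsp90aa1 was Plaa (0.036). Hspa8 was nearest to Lancl1 (0.036), Hspd1 to Aftph (0.036), Bag3 to Psmd13 (0.063) and Dnajb1 to E130309D14Rik (0.083). Hspa1a was nearest to Afap1l2 (0.114) and Hspa1b to Adamts9 (0.149), while the 2 copies were 0.220 apart. Over all samples the highest value exceeded the lowest 3.81-fold in Hspb1 and 2.63-fold in Cryab, and by less than that in the other 8. The replicate SD of Hspb1 lay at percentile 87.2 of all genes and that of Cryab at 73.9, beside a median of 0.24 in log2 CPM. In the order of the 6 group means neighbouring groups overlapped in all 10 genes, except that LAM stood above SNA_NAC in Hspd1.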

How the data were processed

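Ganglion RNA from 18 pooled samples (6 groups of 3) was sequenced from stranded mRNA libraries, per the labels' protocols. The deposited values were whole-number counts per gene and the authors' FPKM; TopHat2 2.0.12, Bowtie2 2.2.3, HTSeq 0.6.0 and mm10 are named in the submitters' processing notes, without roles. The handling of strand and of reads with several matches is not given in the sources used here. Here counts were tested with edgeR 4.0.16 (R 4.3.3; TMM, filterByExpr, which kept all 15730 genes, quasi-likelihood test, all 18 samples in 1 fit, Benjamini-Hochberg adjusted p under 0.05, 7 comparisons). CPM used TMM library sizes. GC and length offsets were natural splines with 5 degrees of freedom over the longest GENCODE transcript. Alternatives were DESeq2 1.42.0, other filters, the groups of a comparison alone, the lane as a block, the offsets, and leaving out each sample. The code was tested on simulated data. Genes were named as members, as chaperones called, or as the smallest p of a family. Members, lists and the GC alternative were chosen with earlier results of these data known, and the offset fits without 1 sample were added after seeing the data. The labels make the replicate number a sequencing lane, which pairs samples by lane and not by animal; same-lane deviations correlated at a mean of -0.24 for SNA_Saline and Sham_Saline, 0.07 for DCA and LAM, 0.09 for SNA_NAC and SNA_Saline, 0.30 for Sham_H202 and Sham_Saline, -0.36 for SNA_NAC and Sham_Saline, and 0.31 for Sham_Saline and LAM (0.24, 0.42 and 0.27 in the 3 lanes). P-values measure the spread between pools of 2 mice.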

Additional observations from a re-analysis of the deposited data

Results flagged for a closer look

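Dnajc7, the J-domain co-chaperone of HSP70 and HSP90, had a larger change after the peripheral than after the central injury in the test of the difference, by a narrow margin. Its change after sciatic nerve injury against the saline sham exceeded its change after dorsal column injury against laminectomy by 0.49 on the log2 scale (edgeR adjusted p = 0.0486 for the difference itself), with 0.51, 0.48 and 0.48 in lanes 1, 2 and 3. The 2 changes were 0.45 and -0.04. The call was lost with the lane as a block (edgeR adjusted p = 0.077), on the 4 groups alone (edgeR adjusted p = 0.0746), with at least 10 counts in every sample (edgeR adjusted p = 0.0525) and in 9 of the 12 fits without 1 sample.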

How the results depend on the processing

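The number of the 10 heat shock genes called stayed at 0 under every alternative between DCA and LAM, SNA_NAC and SNA_Saline, and Sham_H202 and Sham_Saline, as did that of the 114 further chaperones. With GC and length offsets, with or without the lane block, 1 of the 10 (Hspb1) was called in SNA_Saline against Sham_Saline, in SNA_NAC against Sham_Saline and in the peripheral against the central injury. DESeq2 called 2 between Sham_Saline and LAM. Without offsets, leaving out 1 sample gave 0 to 2 in the 3 comparisons with a call under the offsets and 0 to 5 between Sham_Saline and LAM; the higher counts came without Sham_Saline replicate 1. With offsets and without that sample Cryab also passed, at -0.39 after nerve injury, -0.43 for SNA_NAC against Sham_Saline, 0.57 for Sham_Saline against LAM and -0.64 for the injury difference (edgeR adjusted p = 0.0391, 0.0149, 0.0324 and 0.0194). Bag3 passed for the injury difference with offsets and without Sham_Saline replicate 1, SNA_Saline replicate 3 or DCA replicate 1 (0.54, 0.57 and 0.62; edgeR adjusted p = 0.0372, 0.0466 and 0.0296).

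Of the further chaperones, 2 were called after nerve injury, but 4 with DESeq2, 0 in a fit on those groups alone, 1 with the lane block, 6 with the offsets (6 also with the block), and 1 to 15 without 1 sample. For SNA_NAC against Sham_Saline the count was 1, but 5, 0 (groups alone), 7 and 7 (offsets, without and with the block), and 0 to 40. Between Sham_Saline and LAM it was 0, but 12 with DESeq2 and 0 to 42 without 1 sample. For the injury difference it was 1, but 16 with DESeq2, 0 with at least 10 counts in every sample, 0 on those groups alone, 0 with the block, 3 with the offsets, 2 with offsets and block, and 0 to 41 without 1 sample. The highest of these counts all came without Sham_Saline replicate 1, where 16.2%, 37.3%, 31.8% and 29.2% of all genes were called in the 4 comparisons as ordered here. DESeq2 called 5.49%, 8.09%, 8.21% and 12.4% of all genes in them, and the offset fit 7.44%, 7.64%, 0.159% and 5.24%. The lane block changed no call of the 10 genes. The cause of these moves was not tested.

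Hspb1 changed sign. After nerve injury it ran from -0.22 to 0.57 without 1 sample, and was below 0 without Sham_Saline replicate 1 (-0.22), Sham_Saline replicate 3 (-0.05) or SNA_Saline replicate 3 (-0.15). For SNA_NAC against Sham_Saline it was 0.60 with the offsets, 0.61 with offsets and block, and -0.41 to 0.38 without 1 sample, above 0 only without Sham_Saline replicate 2. With offsets and without Sham_Saline replicates 1, 2 or 3 it was 0.59, 0.71 or 0.53, and without SNA_NAC replicates 1, 2 or 3 it was 0.59, 0.60 or 0.62. The injury difference was 0.51 with the offsets and 0.52 with offsets and block. With offsets and 1 sample left out, in replicate order, it was 0.50, 0.61 and 0.44 for Sham_Saline, 0.50, 0.55 and 0.50 for SNA_Saline, 0.57, 0.55 and 0.43 for LAM, and 0.50, 0.51 and 0.54 for DCA. The 2 inducible HSP70 genes rest on 24 to 190 reads per sample, which limits their precision.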
